A study of Bos taurus with 33 samples.

Results

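The transcripts described here are those of 10 genes of the spindle checkpoint and of the Aurora kinases, chosen by their symbols and joined between the oocyte and cumulus cell (CC) tables by Ensembl identifier. They are BUB1 (ENSBTAG00000021181), TTK (ENSBTAG00000005456), BUB1B (ENSBTAG00000007237), BUB3 (ENSBTAG00000017913), MAD2L1 (ENSBTAG00000035319), AURKA (ENSBTAG00000013009), AURKB (ENSBTAG00000001717), AURKC (ENSBTAG00000003261), CDC20 (ENSBTAG00000009819) and FZR1 (ENSBTAG00000031387). All 10 were listed in both tables, among 16279 genes in the oocyte table, 16244 in the CC table and 17543 in either. MAD2L1 and AURKC carried no symbol in the CC table and were found there by identifier.

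RNA was sequenced from pools of 4 oocytes, and from pools of the CC that enclosed such oocytes, collected from the preovulatory follicles of suckled postpartum beef cows. Every cow had received gonadotropin releasing hormone (GnRH) on day -9 and prostaglandin F2 alpha on day -2. Small follicles (up to 11.7 mm, 6 oocyte and 6 CC pools) and large follicles (from 12.7 mm, 6 and 6 pools) came from cows without estrus, in which a second GnRH injection (GnRH2) on day 0 induced the gonadotropin surge. Spontaneous follicles (11.7 to 14.0 mm, 4 oocyte and 5 CC pools) came from cows in estrus, which had an endogenous surge and no GnRH2. The spontaneous classification therefore differs from the others in the trigger of the surge as well as in follicle diameter, and these cannot be told apart. Aspiration followed about 23 h after GnRH2 or estrus by the protocol, whereas the labels of the pools give about 20 h.

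As background, the spindle checkpoint is a surveillance system of dividing cells, in which kinetochores without proper attachment to microtubules produce an inhibitor that holds back separation of the chromosomes. The kinases TTK and BUB1 recruit the checkpoint proteins, MAD2L1, BUB1B and BUB3 bind CDC20 as the mitotic checkpoint complex, and the anaphase-promoting complex (APC/C) stays inactive until CDC20 is released. Aurora kinases build the spindle and correct wrong attachments. Oocytes pass through this machinery in meiosis, which they resume after a long arrest with mRNA stored during their growth.

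CPM, the unit of all levels given, stands for counts per 1000000 gene-assigned reads. Reads on genes numbered 7664375 to 17934916 per oocyte pool and 1911600 to 5772431 per CC pool, with small replicate 3 the shallowest of the CC pools. At the depth of the shallowest pool, 3 reads, the upper limit that a count of 0 allows, equal 0.391 CPM in oocytes and 1.57 CPM in CC. Such limits, and the intervals given for single pools, cover counting error alone, since amplified cDNA carries no molecular identifiers. The 15 oocyte markers were all retained in oocyte pools, and in CC pools 7 of them were listed, with a summed level of 0 to 8.9 CPM that reached at most 0.0645% of the oocyte median. Of 18 cumulus and granulosa markers 17 were listed in both tables, and they summed to 13413 to 33732 CPM in CC pools. In oocyte pools 10 of them passed the filter on low values, with a sum of 810 to 4527 CPM, highest in small replicate 3. This sum is not specific to cumulus cells. Looked up after their values were seen, STAR averaged 370 CPM in oocyte and 24.4 CPM in CC pools, HAS2 193 and 75.5 CPM, and CD44 18.9 and 6.06 CPM. All other listed markers of this set had higher means in CC pools. White blood cell markers were also present in CC pools, with 8 of 10 retained and a sum of 28.5 to 167 CPM. The sum in oocyte pools was 136 to 290.4 CPM with 4 of 10 retained, of which CSF1R, looked up after its values were seen, made up 176 CPM on average, so that this sum is not specific to blood cells.

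The oocyte pools carried far more of these transcripts than the CC pools, relative to all reads on genes. For 9 of the 10 genes, every one of the 16 oocyte pools was above every one of the 17 CC pools. FZR1 was the exception. Such a separation was found for 22.9% of the 11431 transcripts listed in both tables and retained in either. Transcripts listed in 1 table only, such as that of the oocyte marker BMP15, are left out of this share and of the percentiles below. The tables were scaled separately, so that these ratios compare shares of each tissue's reads and were not tested. In RNA from pools of cells, fewer cells of a type and less RNA per cell cannot be told apart.

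**Figure D1:**
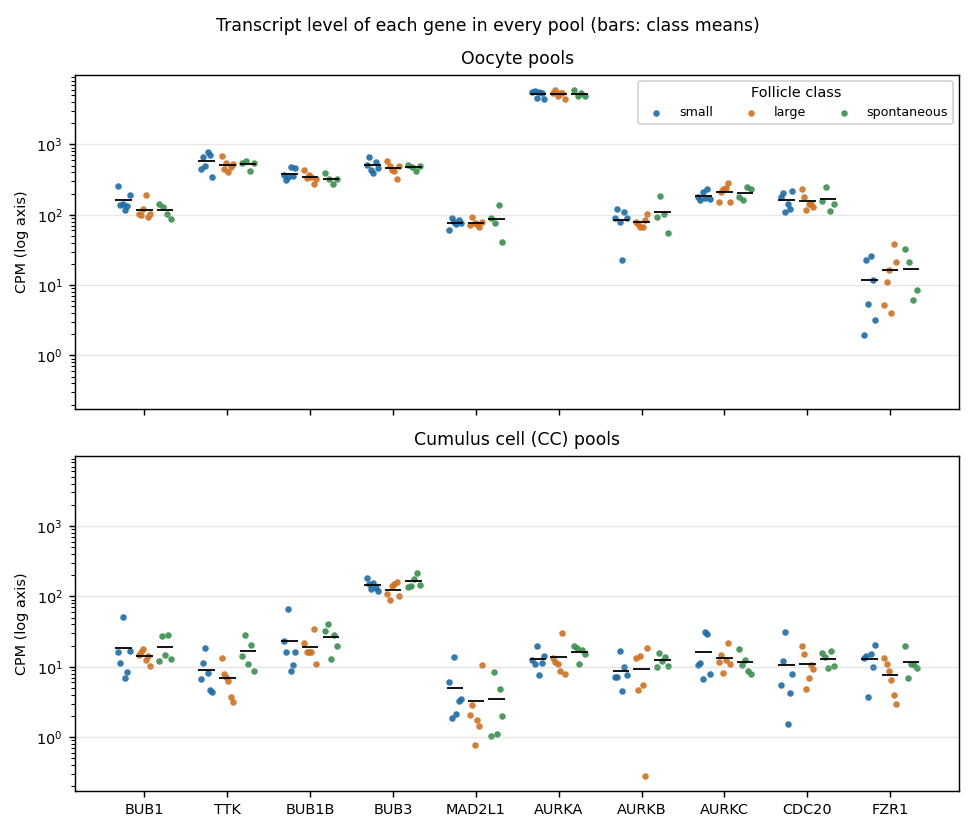
CPM of the 10 genes in every pool, on a log axis, for oocyte pools (upper panel) and CC pools (lower panel). Points are pools coloured by follicle classification and black bars are class means. AURKA sits between 4468 and 5970.4 CPM in all oocyte pools, and FZR1 is the gene whose oocyte and CC pools overlap.

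Of the checkpoint kinases, TTK, which starts checkpoint signalling by phosphorylating the kinetochore, averaged 537 ± 118 CPM in oocyte pools (SD, n = 16) and 10.4 ± 6.77 CPM in CC pools (SD, n = 17), a ratio of 51.5. BUB1, a kinase that marks the centromere and recruits further checkpoint proteins, averaged 134 ± 45.3 CPM in oocyte pools and 17.1 ± 10.3 CPM in CC pools, a ratio of 7.84. Among 11431 transcripts, the oocyte-to-CC ratio of TTK lay at percentile 97.8 and that of BUB1 at percentile 86.3.

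Of the mitotic checkpoint complex, BUB1B, the pseudokinase BUBR1, averaged 355 ± 60.5 CPM in oocyte pools and 22.9 ± 14.1 CPM in CC pools, a ratio of 15.5. MAD2L1, the MAD2 protein that changes its fold to bind CDC20, averaged 79.4 ± 20.0 CPM in oocyte pools and 3.96 ± 3.69 CPM in CC pools, a ratio of 20.1. BUB3, which docks BUB1 and BUB1B on the kinetochore, averaged 478 ± 79.5 CPM in oocyte pools and 143 ± 31.2 CPM in CC pools. Its ratio of 3.35 was the lowest among the 9 genes whose tissues were separate. In CC pools BUB3 was at 29.9% of its oocyte mean and MAD2L1 at 4.98%. The summed oocyte markers had a CC median of 0.0264% of their oocyte median. That value is an unlike measure, a median of sums over 7 listed markers in CC and 15 in oocyte pools. The source of the CC reads was not tested.

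Of the Aurora kinases, AURKA, which acts at the spindle poles, stood furthest apart. It averaged 5205 ± 474 CPM in oocyte pools and 14.1 ± 5.61 CPM in CC pools. This ratio of 368 was at the 99.8th percentile of the 11431 transcripts listed in both tables. AURKB, the catalytic subunit of the chromosomal passenger complex in somatic cells, averaged 89.1 ± 34.7 CPM in oocyte pools and 10.03 ± 4.95 CPM in CC pools, a ratio of 8.88. AURKC, its close relative known chiefly from germ cells, averaged 200.2 ± 40.1 CPM in oocyte pools and 13.8 ± 7.25 CPM in CC pools, a ratio of 14.5. All 17 CC pools had AURKC, from 6.8 to 31.3 CPM. AURKB and AURKC are similar in sequence, and how reads matching both were counted is not given in the sources used here, so their split is uncertain.

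Of the APC/C co-activators, CDC20, which directs the complex at the onset of anaphase, averaged 161 ± 44.0 CPM in oocyte pools and 11.4 ± 7.08 CPM in CC pools, a ratio of 14.1. FZR1, also called CDH1, the co-activator that keeps the APC/C active outside division and in the prophase arrest of oocytes, averaged 14.8 ± 11.3 CPM in oocyte pools and 10.7 ± 5.11 CPM in CC pools. Its ratio of 1.39 lay at the 52.9th percentile, close to the middle of the 11431 transcripts listed in both tables.

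The other genes of the pathway were taken as 3 lists. In the kinetochore and checkpoint list 14 of 20 genes had all oocyte pools above all CC pools. In the chromosomal passenger and Aurora partner list 6 of 9 did, and in the APC/C list 5 of 18. This held for 22.9% of the 11431 transcripts listed in both tables and retained in either. None of the list genes had all CC pools above, against 13.4% of the same transcripts. CENPF, a large kinetochore protein, averaged 2984 CPM in oocyte pools and 148 CPM in CC pools. CENPE, a kinetochore motor, averaged 460.3 and 39.8 CPM, and BIRC5, the survivin subunit of the passenger complex, 169 and 49.6 CPM. SGO1, the shugoshin that protects centromeric cohesion, averaged 555 and 5.42 CPM, and CDCA8, the borealin subunit of the passenger complex, 2188 and 9.45 CPM. TPX2, which activates AURKA on microtubules, averaged 617 CPM in oocyte pools and 40.3 CPM in CC pools. FBXO5, the APC/C inhibitor EMI1, averaged 1526 and 4.63 CPM. FBXO43, the APC/C inhibitor EMI2 of the second meiotic arrest, was looked up after its values were seen. It averaged 152 CPM in oocyte pools and 0.0331 CPM in CC pools. The CC mean is below the CPM of 1 read in any CC pool, 0.173 or more. Of the core APC/C subunits, CDC27 averaged 538 CPM in oocyte pools and 205 CPM in CC pools, and ANAPC1 172 and 201 CPM. The phosphatase subunit PPP1CC averaged 114 CPM in oocyte pools and 255 CPM in CC pools.

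The spread among pools differed by gene and by tissue. Of the genes described here AURKA varied least, with a coefficient of variation of 9.11% over the 16 oocyte pools. Of the 10076 retained oocyte transcripts, 0.129% had a smaller one. Among abundant genes of the pathway lists, FBXO5 (1526 ± 118 CPM, SD) varied less than AURKA relative to its mean. CENPF (2984 ± 457 CPM) and CDCA8 (2188 ± 376 CPM) varied more. BUB3 and BUB1B varied by 16.6% and 17.0%, AURKC by 20.0% and TTK by 22.0%, against a median of 45.9% over all retained transcripts. Those transcripts were not matched to these genes by level, so whether the low spread is particular to them was not tested. FZR1 varied by 76.3% in oocyte pools, from 1.95 to 38.9 CPM. In CC pools the order was different: BUB1, BUB1B, CDC20 and TTK varied by 60.4% to 64.9%, above the median of 33.9% over 9712 retained transcripts, and BUB3 by 21.8%. Without small pool 3, an alternative chosen after seeing the data, BUB1 varied by 38.7%, BUB1B by 45.4%, CDC20 by 49.3% and TTK by 67.1%, beside a median of 32.5%. Counting error is larger in CC pools, where TTK rested on 13 to 146 reads and AURKA on 25 to 105, than in oocyte pools, where AURKA had 35017 to 88242.

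**Figure D2:**
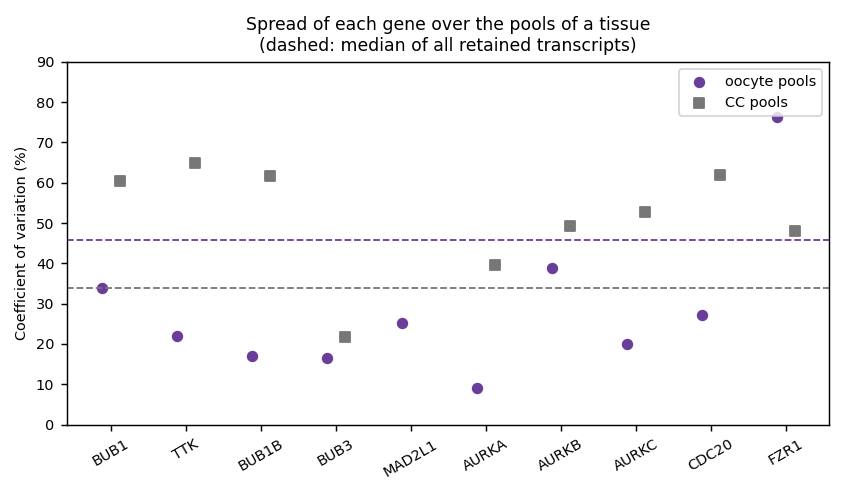
Coefficient of variation of each gene over the 16 oocyte pools (circles) and 17 CC pools (squares), in percent. Dashed lines are the medians of all retained transcripts, 45.9% in oocyte pools and 33.9% in CC pools, not matched to the genes by level. Of the points shown, AURKA in oocyte pools is lowest at 9.11%. MAD2L1 has no CC point because it did not pass the filter on low values.

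The follicle classifications were compared within each tissue, to ask whether these transcripts differed with follicle size or with the trigger of the surge. Tests were run on transcripts that reached 5 CPM in 4 or more of the oocyte pools, or in 5 or more of the CC pools, which all 10 genes passed in oocytes and 9 in CC. The test was limma, two-sided, on log2(CPM + 1), and a log2 fold change is the difference in mean log2(CPM + 1), the second classification minus the first. Transcripts at a nominal p of 0.01 or less were called. Where small oocyte pools took part, a call also had to hold without small replicate 3.

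In oocyte pools 0 of the 10 genes were called in any comparison, against 0.655% of all transcripts between small and large, 0.774% between small and spontaneous and 0.943% between large and spontaneous follicles. By edgeR and by DESeq2 on the recovered reads the count was also 0. The 30 log2 fold changes ran from -0.47 to 0.69, the smallest Benjamini-Hochberg adjusted p was 0.975 (limma), and 1 of the 30 had an unadjusted p under 0.05, as did 4.11%, 4.51% and 4.87% of all transcripts in the same 3 comparisons. No gene's classifications were without overlap, which was the case for 0.258%, 0.903% and 0.913% of transcripts.

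AURKA in oocytes measured 5471, 5714, 4569, 5487, 5324 and 4468 CPM in small pools 1 to 6, with a median of 5397. In large pools it measured 5281, 5970.4, 4894, 5337, 5429 and 4480.4 CPM, and in spontaneous pools 5859, 4837, 5337 and 4829 CPM. The 3 classifications overlapped over nearly their whole range, and the lowest and highest pools of all were small pool 6 and large pool 2. The 95% interval of the log2 difference was -0.15 to 0.19 between small and large, -0.19 to 0.22 between small and spontaneous and -0.18 to 0.18 between large and spontaneous, the narrowest among the 10 genes.

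BUB1 was the gene with the unadjusted p under 0.05 in oocytes. It measured 259, 138, 143, 115, 134 and 193 CPM in small pools, 103, 97.7, 120.3, 190.0, 93.9 and 102 CPM in large pools, and 140.4, 129, 103 and 88.2 CPM in spontaneous pools. Small pools 1 and 6 were highest, and large pools 3 and 4 lay within the range of the small pools. From small to large the log2 fold change was -0.46 ± 0.22 (SE), with p = 0.0421 and adjusted p = 0.997 by limma, and the exact permutation test of mean CPM gave p = 0.117. From small to spontaneous it was -0.47 ± 0.25 (SE), with adjusted p = 0.987 by limma.

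The remaining checkpoint transcripts of oocytes overlapped widely. TTK ranged from 347 to 774 CPM in small pools (median 579), from 407 to 679 CPM in large pools (median 506) and from 414 to 570.5 CPM in spontaneous pools. BUB1B measured 308 to 484 CPM in small, 274 to 432 CPM in large and 271 to 394 CPM in spontaneous pools. BUB3 measured 391 to 660.2, 323 to 578 and 418 to 501 CPM in the same order. MAD2L1 means lay within 1.13-fold of each other, at 77.3 ± 10.2, 76.7 ± 8.25 and 86.6 ± 40.4 CPM (SD), and the spontaneous pools, at 89.6, 77.1, 139 and 41.0 CPM, held both the highest and the lowest value.

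AURKB in oocytes measured 90.6, 120.0, 79.8, 22.8, 109 and 89.9 CPM in small pools, 79.5, 73.9, 66.6, 66.6, 85.0 and 104 CPM in large pools, and 94.2, 185, 103 and 55.5 CPM in spontaneous pools. Small pool 4 was lowest and spontaneous pool 2 highest. AURKC measured 160.1 to 229 CPM in small, 154 to 283 CPM in large and 159 to 251 CPM in spontaneous pools. CDC20 measured 109 to 216, 118 to 230.1 and 114 to 251 CPM. For FZR1 the interval was widest, with a log2 fold change from small to spontaneous of 0.69 and a 95% interval of -0.76 to 2.15. The interval leaves differences of either sign within those bounds.

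**Figure D3:**
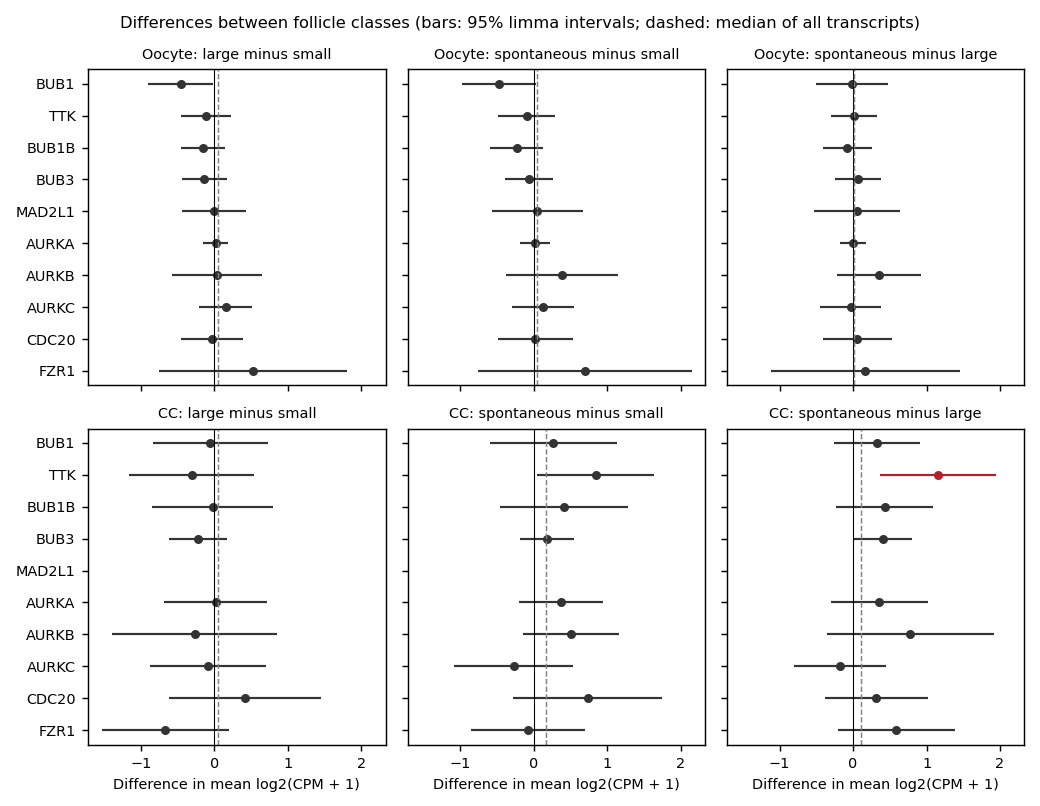
Difference in mean log2(CPM + 1) between follicle classifications for each gene, with 95% limma intervals, in oocyte pools (upper row) and CC pools (lower row). The solid line is 0, the dashed line is the median of all tested transcripts, and red marks the called difference, TTK between large and spontaneous CC pools at 1.15. The oocyte intervals of AURKA are the narrowest.

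In CC pools 1 of 27 differences was called, TTK between large and spontaneous follicles, where 1.66% of all transcripts were called and 1.45% in the same direction. Between small and large follicles 0 of 9 genes were called, against 0.813% of transcripts, with 0 at an unadjusted p under 0.05 (4% of transcripts). Between small and spontaneous follicles 0 of 9 were called, against 2.38%, with 1 at an unadjusted p under 0.05 (8.55% of transcripts). By edgeR and by DESeq2 both counts were 0 as well. Between large and spontaneous follicles 2 genes, TTK and BUB3, were at an unadjusted p under 0.05, as were 7.07% of transcripts. No gene's CC classifications were without overlap, against 0.247%, 1.16% and 0.865% of transcripts for small and large, small and spontaneous, and large and spontaneous follicles.

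TTK in CC measured 6.75, 11.4, 18.3, 8.2, 4.71 and 4.33 CPM in small pools, 13.2, 7.83, 7.13, 6.25, 3.69 and 3.16 CPM in large pools, and 14.0, 28.5, 10.9, 20.3 and 8.6 CPM in spontaneous pools. Of the large pools, 5 of 6 were below every spontaneous pool, and large pool 1 was within the spontaneous range. Mean TTK was 2.39 times higher in spontaneous pools (16.5 ± 8.04 CPM, n = 5) than in large pools (6.88 ± 3.62 CPM, n = 6). The log2 fold change was 1.15 ± 0.37 (SE), with p = 0.0067 and adjusted p = 0.567 by limma, and the exact permutation test gave p = 0.0173. From small to spontaneous it was 0.84 ± 0.38 (SE), with adjusted p = 0.564 by limma and exact permutation p = 0.0952.

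The call of TTK did not pass adjustment over all transcripts, and it was lost with median-of-ratios scaling, with the unfiltered table, without mitochondrially encoded genes, by edgeR, and when any of large pools 4, 5 and 6 or spontaneous pools 1, 2 and 4 was left out, with log2 fold changes of 0.93 to 1.18. Over the 9 alternatives with all pools its adjusted p ran from 0.436 to 0.766 by limma, edgeR or DESeq2. Leaving out small pool 3 instead brought TTK between small and spontaneous follicles to a log2 fold change of 1.06, which was then called, with adjusted p = 0.333 by limma. That setting called 269 of all 9677 transcripts. All transcripts together were shifted upwards in spontaneous pools, by a median of 0.11 against large and 0.16 against small pools on the log2 scale, and by 0.01 in both with median-of-ratios scaling.

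Other values also differed between the CC classifications, not all in the order of TTK. The summed CPM of the 19 listed proliferation genes had a median of 421 in large pools (307 to 562), 353 in small pools (299 to 1028) and 617 in spontaneous pools (407 to 946). White blood cell markers had medians of 50.3, 82.2 and 84.0 CPM in large, small and spontaneous pools, and small pools were the lowest in summed cumulus and granulosa markers, with a median of 19177 CPM against 27298 and 24809 CPM in large and spontaneous pools. Reads on genes had medians of 4121436, 3276812 and 5126690 in large, small and spontaneous CC pools. The part of these values in the result was not tested.

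Of the 9 genes, 8 were higher in spontaneous than in large CC pools by mean log2(CPM + 1), with a median log2 fold change of 0.40, while 65.6% of all transcripts were higher. BUB3 measured 108, 87.6, 139, 149.5, 162 and 103 CPM in large pools and 137, 138, 179, 216 and 147 CPM in spontaneous pools, which overlapped. Its log2 fold change was 0.40 ± 0.19 (SE), with adjusted p = 0.699 by limma and exact permutation p = 0.0714. AURKC was the gene with the opposite sign, at -0.18 ± 0.30 (SE).

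Of the other CC transcripts, BUB1 was at 50.7 CPM in small pool 3 and at 6.98 to 16.6 CPM in the remaining small pools. BUB1B was at 65.4 CPM in the same pool and at 8.81 to 23.0 CPM in the remainder, and CDC20 at 31.4 CPM against 1.52 to 12.0 CPM. AURKA did not show such a gap there but was at 29.8 CPM in large pool 5, against 7.9 to 13.2 CPM in the remaining large pools. In that large pool AURKB rested on 1 read, 0.284 CPM with an exact 95% binomial interval of 0.00719 to 1.58 CPM, below all other CC pools. MAD2L1, which failed the filter, averaged 5.06, 3.25 and 3.48 CPM in small, large and spontaneous pools, with exact permutation p-values of 0.459, 0.571 and 0.887 for small against large, small against spontaneous and large against spontaneous. FZR1 was lowest in large pools, at 7.75 ± 4.08 CPM (SD), against 12.9 ± 5.66 CPM in small and 11.5 ± 4.79 CPM in spontaneous pools, with exact permutation p-values of 0.106 and 0.197.

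In CC, several of these transcripts followed the proliferation genes from pool to pool. The share of all 9712 retained CC transcripts that follow the same sum as closely was not computed. The 19 genes include MKI67, TOP2A and KIF20A and none of the 10 described here, and the relation was computed on log2(CPM + 1) over 17 CC pools and 16 oocyte pools, 20 relations in all, with 100000 resamples and Benjamini-Hochberg adjustment. TTK had Pearson's r = 0.86 (permutation p = 2e-05, adjusted p = 0.0004) and Spearman's rho = 0.84 (permutation p = 0.00014, adjusted p = 0.0014). Without small pool 3 and spontaneous pool 2, the pools farthest from the median, r was 0.79. With class means removed it was 0.84.

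CDC20 had r = 0.79 (permutation p = 0.0001, adjusted p = 0.00087) and rho = 0.88 (permutation p = 3e-05, adjusted p = 0.0006), with r = 0.77 without the same pools. BUB1B had r = 0.81 (permutation p = 0.00013, adjusted p = 0.00087) and rho = 0.66 (permutation p = 0.00482, adjusted p = 0.0321), with r = 0.63 without them. BUB1 had r = 0.71 (permutation p = 0.00114, adjusted p = 0.0057) but rho = 0.35 (permutation p = 0.168, adjusted p = 0.481), and r = 0.41 without them, so that its relation rests on those pools. AURKA had r = 0.57 (permutation p = 0.0162, adjusted p = 0.0646) and rho = 0.62 (permutation p = 0.00968, adjusted p = 0.0484), with r = 0.46 without them.

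For BUB3, FZR1, AURKB, AURKC and MAD2L1 in CC, r ran from -0.33 to 0.38 and rho from -0.14 to 0.23, with adjusted permutation p of 0.379 or more. In oocyte pools, where the proliferation genes summed to 6196 to 7246 CPM, the largest r was that of CDC20, at 0.43 (permutation p = 0.0927, adjusted p = 0.309), with rho = 0.43 (permutation p = 0.0959, adjusted p = 0.384) and r = 0.22 without small pool 3 and spontaneous pool 3. Pools share a scaling to total reads, and CC pools differ in depth.

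**Figure D4:**
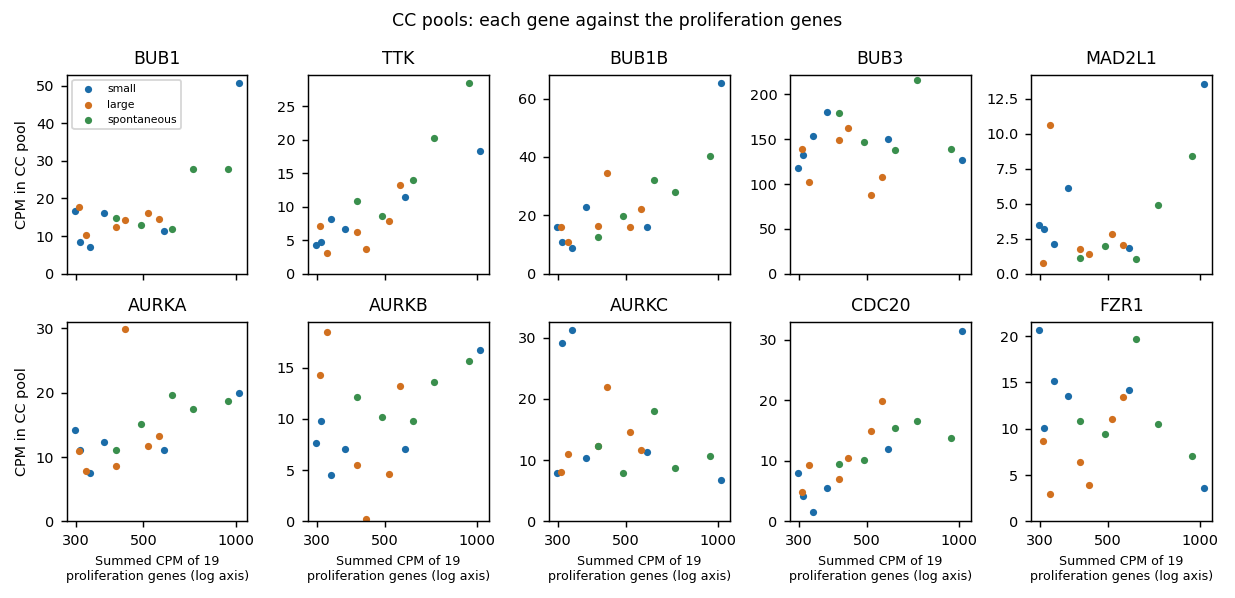
CPM of each gene (vertical axis, linear from 0) against the summed CPM of 19 proliferation genes (horizontal axis, log) in the 17 CC pools, coloured by follicle classification. TTK, CDC20 and BUB1B rise along the axis, while BUB3, AURKC and FZR1 do not, and small pool 3 is the rightmost point at 1028 CPM.

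The retained transcripts most like each gene over the CC pools, by Pearson's r of log2(CPM + 1) over 17 pools, included genes of the proliferation list for TTK and CDC20. For each gene they are the highest among all 9712 retained CC transcripts, or 10076 in oocytes. What r chance alone would give at the top of so many was not computed. For TTK they were KIF20A, a mitotic kinesin (r = 0.93), and MKI67 (r = 0.87). For CDC20 they were TOP2A, the DNA topoisomerase of dividing cells (r = 0.89), and UBE2C, the ubiquitin-conjugating enzyme of the APC/C (r = 0.86). BUB1B and AURKA were nearest to each other (r = 0.84), followed by CCNB1 for BUB1B (r = 0.82) and KIF2C, a kinesin that removes tubulin from microtubule ends, for AURKA (r = 0.83). BUB1 was nearest to SHCBP1 (r = 0.85) and UBE2S (r = 0.82).

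Of the other genes in CC, BUB3 was followed by a gene without a symbol, ENSBTAG00000012081 (r = 0.85), and NIF3L1 (r = 0.83), AURKC by FN3KRP (r = 0.83) and AGO3 (r = 0.81), and FZR1 by TCF3 (r = 0.83) and ZNF582 (r = 0.82). AURKB was followed by SLC38A7 (r = 0.81, rho = 0.45) and LCP1, a white blood cell marker (r = 0.80, rho = 0.51). Without large pool 5, where AURKB had 1 read, r over the remaining 16 pools was 0.39 with SLC38A7 and 0.55 with LCP1, as computed after seeing the data. AURKC went against BUB1 (r = -0.69), AURKB (r = -0.53) and CDC20 (r = -0.52), the lowest values among all CC pairs of the retained genes. These pairs were not tested. The value with AURKB includes large pool 5, and the split of reads between AURKB and AURKC is uncertain. Over the 16 oocyte pools, AURKA was nearest to CDK20 (r = 0.89) and PDCD5 (r = 0.87), TTK to LMOD3 (r = 0.86), and BUB1B to ESYT1 (r = 0.85), none of them in the lists.

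Among the pathway lists, calls were few in each comparison of follicle classifications. In oocytes between small and large follicles 1 of 45 tested genes was called, where 0.655% of all transcripts were. It was DSN1, a subunit of the kinetochore's MIS12 complex, whose mean fell from 132 ± 21.8 to 81.2 ± 13.5 CPM (SD, n = 6 and 6), without overlap, where 0.258% of transcripts did not overlap. Its log2 fold change was -0.70 ± 0.20 (SE), with adjusted p = 0.997 by limma and exact permutation p = 0.00216. The call needs a nominal p of 0.01 or less also without small pool 3, and it was lost where small pool 5, large pool 4 or large pool 5 was left out together with that pool, whereas p stayed at or under 0.01 with any 1 pool left out. Between large and spontaneous follicles 1 of 45 was called, against 0.943% of transcripts, namely SPDL1, which brings dynein to the kinetochore, at 249 ± 42.1 and 171 ± 21.0 CPM (log2 fold change -0.53 ± 0.18, adjusted p = 0.968 by limma). It was lost without any of large pools 1 to 4 or spontaneous pools 2 and 4 (-0.45 to -0.53). Between small and spontaneous oocyte pools none of 45 was called by limma, edgeR or DESeq2 (0.774% of transcripts by limma), with 1 at an unadjusted p under 0.05 (4.51% of transcripts).

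In CC, 2 of 40 pathway genes were called between small and spontaneous follicles, against 2.38% of all transcripts. ANAPC1, the largest scaffold subunit of the APC/C, rose from 131 ± 24.2 to 270 ± 59.5 CPM (SD, n = 6 and 5), with no overlap, where 1.16% of transcripts did not overlap. Its log2 fold change was 1.03 ± 0.18 (SE), with adjusted p = 0.0569 by limma and exact permutation p = 0.00216. NEDD9, a scaffold that activates AURKA, was at 9.48 ± 4.43 and 19.9 ± 6.9 CPM (log2 fold change 1.03 ± 0.35, adjusted p = 0.418 by limma), and its call was lost without any of small pools 1, 4 and 5 or spontaneous pools 1 to 4 (0.88 to 1.02). Between large and spontaneous follicles 1 of 40 was called, against 1.66%, namely UBE2C, at 39.3 ± 18.5 and 76.4 ± 31.5 CPM (log2 fold change 0.99 ± 0.31, adjusted p = 0.567 by limma), and its call was lost without any of large pools 3, 5 and 6 or spontaneous pools 2 and 4 (0.78 to 0.92). Between small and large CC pools 0 of 40 were called by limma (0.813% of transcripts), with 3 at an unadjusted p under 0.05 (4% of transcripts). DESeq2 called 1, beside 112 of all 9712 transcripts.

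By direction, 14 of 16 kinetochore genes, 8 of 8 passenger and Aurora partners and 14 of 16 APC/C genes were higher in spontaneous than in large CC pools, with medians of 0.58, 0.23 and 0.21 on the log2 scale, beside 65.6% of all transcripts and their median of 0.11. In spontaneous against small CC pools the counts were 12 of 16, 7 of 8 and 13 of 16, with medians of 0.18, 0.34 and 0.29, and 7 of the 9 checkpoint and Aurora genes were higher with a median of 0.37, beside 71.9% of all transcripts and their median of 0.16. Between small and large CC pools the median of the 9 checkpoint and Aurora genes was -0.09, and 2 of 9 were higher in large pools, as were 56% of all transcripts. The list medians in oocytes lay between -0.15 and 0.18.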

How the data were processed

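The authors extracted RNA from pools of 4 oocytes, or of their CC, amplified it to cDNA and sequenced single-end reads. They aligned the reads with HISAT2 to the bovine assembly UMD 3.1 and counted them on Ensembl genes with featureCounts. Versions of these tools are not given in the sources used here. The deposited unit is CPM, that is counts per 1000000 reads on genes, and the oocyte and CC tables were scaled by the authors separately. Whether counting used strand is not given in the sources used here. Files of another build were not used for positions, and sequences were not used here.

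Columns were matched to pools by name (0 unmatched). Reads were recovered as multiples of the CPM of 1 read, and 100% of values were whole within 0.01. Libraries of a group differed by more than sampling noise (chi-square over its degrees of freedom was at least 68.4 for oocyte and 14.9 for CC pairs).

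Transcripts reaching 5 CPM in 4 oocyte or 5 CC pools were compared between pairs of classifications with limma 3.58.1 (R 4.3.3) on log2(CPM + 1), two-sided, with a mean-variance trend and Benjamini-Hochberg adjustment over all transcripts tested. Exact permutation tests of mean CPM, two-sided, stood beside it. The settings varied were the pseudocount (0.1), the filter (none, or a mean of 1 CPM), the scaling (median-of-ratios, or CPM without 13 mitochondrially encoded genes) and the design (a joint fit of 3 classifications, or a replicate block). Recovered reads were also tested with edgeR 4.0.16 and DESeq2 1.42.0, and each pool was left out in turn. Scripts were tested on simulated data. Correlations and figures used Python 3.11.15, scipy 1.17.1 and matplotlib 3.10.9.

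The genes and lists were chosen with earlier results of these data known. Named besides the 10 genes are list genes that were called, the 2 with the highest mean CPM per list and tissue, and the 2 transcripts most like each gene per tissue, of which those for AURKA, TTK and BUB1B are given for oocytes. KNL1, INCENP and ANAPC2 were not found by symbol and are not analysed here. The labels number the pools of a group without a record of the complexes or cows in each. The pools were treated as separate sets of complexes.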

Additional observations from a re-analysis of the deposited data

Results flagged for a closer look

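In 7 of 60 groups of 4 to 6 pools, the highest pool lay further from the others than Dixon's 95% critical value allows. Chance gives about 1 in 20 groups, or 3, if values are normally distributed and groups independent. The test was run on CPM without a log scale, and the genes share pools, so these counts do not test for an excess. In CC small pool 3, BUB1 was at 50.7 CPM (6.98 to 16.6 CPM in the remaining small pools), BUB1B at 65.4 CPM (8.81 to 23.0 CPM), CDC20 at 31.4 CPM (1.52 to 12.0 CPM) and MAD2L1 at 13.6 CPM (1.85 to 6.13 CPM). The same pool had the highest sum of proliferation genes of all CC pools, at 1028 CPM, the lowest sum of cumulus and granulosa markers, at 13413 CPM, and the fewest reads, 1911600. The part of these in the flagged values was not tested.

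In CC large pool 6, MAD2L1 was at 10.6 CPM, against 0.764 to 2.85 CPM in the remaining large pools, with 323 CPM of proliferation genes and 143 CPM of white blood cell markers. In CC large pool 5, AURKA was at 29.8 CPM, against 7.9 to 13.2 CPM. In oocyte large pool 4, BUB1 was at 190.0 CPM, against 93.9 to 120.3 CPM. Dixon's test was met by no sample of AURKB, AURKC, BUB3, FZR1 or TTK.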

How the results depend on the processing

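In oocytes, 0 of the 10 genes were called in all 3 comparisons under every alternative run, and in CC 0 of 9 between small and large follicles. The single call, TTK between large and spontaneous CC pools, became 0 with no filter, median-of-ratios scaling, CPM without mitochondrially encoded genes, the replicate block and edgeR, and ran from 0 to 1 with pools left out, while its log2 fold change stayed between 0.93 and 1.35. Between small and spontaneous CC pools the count was 0 to 1 with pools left out, 1 without small pool 3, where 269 of all 9677 transcripts were called. Of 57 differences, 27 changed sign under some alternative. The causes were not tested.

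For pathway genes, between small and large oocyte pools the count of 1, DSN1, became 0 with the replicate block, where p was 0.00306 with all pools and 0.0105 once small pool 3 was left out too. It became 3 with DESeq2, which called 113 of all 10076 transcripts. When a pool was left out it was 0 to 1 (0 without small pool 5 or large pool 4, each only together with small pool 3). Between large and spontaneous oocyte pools the count of 1 became 0 with all classifications in one fit and 0 to 2 with pools left out. Between small and large CC pools DESeq2 called 1, beside 112 of all 9712 transcripts. Between small and spontaneous CC pools the count of 2 became 1 with no filter, median-of-ratios scaling, CPM without mitochondrially encoded genes, edgeR and DESeq2, and 1 to 5 with pools left out (5 without small pool 3). Leaving out that pool called 269 of all 9677 transcripts. Between large and spontaneous CC pools the count of 1 became 0 with no filter, median-of-ratios scaling, CPM without mitochondrially encoded genes, one fit, edgeR and DESeq2, 2 with the replicate block, and 0 to 2 with pools left out. The replicate block called 151 of all 9712 transcripts.

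Over all transcripts, the share of calls higher in spontaneous CC pools against large ones was 141 of 161, and 62 of 118 with median-of-ratios scaling; against small ones it was 221 of 231 and 79 of 126. Deviations of same-numbered pools correlated from -0.19 to 0.22, not over 0.1 in every pair of any comparison, so the main tests did not pair pools by number. With so few pairs, this check cannot exclude a pairing. Among the limits of depth, MAD2L1 in CC rested on 3 to 47 reads per pool.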
